A study of Homo sapiens with 8 samples.

Results

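A set of 10 genes used as markers of colorectal stem cells and tumour-initiating cells was followed in SW480, an established human line from a colorectal adenocarcinoma. The genes were LGR4, LGR5, PROM1, CD44, CD24, ALCAM, EPCAM, DCLK1, SOX2 and BMI1. They were taken by symbol from a table of 58735 genes, and each symbol was found there exactly 1 time. The control group (4 libraries, labelled Ct) carried the vector control, and the SPOCK1 group (4 libraries, labelled SP) stably overexpressed SPOCK1-flag from a lentivirus. The labels give 1 protocol of infection and puromycin selection for all libraries and the same batch for each. SPOCK1 encodes a proteoglycan secreted into the matrix, and the series title ties it to Wnt/β-catenin signalling and stemness in this cancer. SW480 lacks full-length APC, so Wnt/β-catenin signalling is already active in both groups. Nothing in the labels says that libraries of 1 group were grown or infected separately. The spread that p-values measure here is then that of these libraries only and may be technical, and an effect of SPOCK1 and another difference between the selected populations cannot be told apart.

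In the normal intestine, stem cells at the crypt base are kept by Wnt ligands and by R-spondins, which bind the receptors LGR4, LGR5 and LGR6 and so keep Frizzled receptors on the cell surface. LGR5 is itself a Wnt target and the usual marker of these cells. In colorectal tumours, cells that start new tumours on transplantation have been enriched with the surface proteins CD133 (the product of PROM1), CD44, CD24, CD166 (ALCAM) and EpCAM. DCLK1, SOX2 and BMI1 are intracellular markers from the same field.

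Libraries held 35643585 to 42812951 counts. SPOCK1 had 0 to 6 counts in each control library and 6719 to 9712 in each SPOCK1 library. The deposited tissue label is colon. A list of 7 colon epithelium genes summed to 11519 to 14132 CPM (scaled counts per 1e+06) in controls and 12857 to 14446 CPM with SPOCK1. Nearly all of this was KRT8 (means of 8281 CPM in controls and 8806 CPM with SPOCK1) and KRT18 (4515 and 4715 CPM). The sum therefore says little of the other genes of the list. CDX2, a colon transcription factor, was present, at 104.3 CPM in controls and 93.1 CPM with SPOCK1 by group mean. The colonocyte genes KRT20, CDX1 and CDH17 had too few counts to be tested. Of the 4 tested genes of this list 0 were called, in a comparison that called 1.04% of all tested genes. VIL1, 1 of these 4, stood at 78.0 CPM in controls and 64.8 CPM with SPOCK1 by group mean. Its groups did not overlap, as for 8.23% of all tested genes. VIL1 shares 44.0% of its exonic bases with USP37 on the opposite strand, so its level is uncertain. Markers of other cells were near absent: the summed level of 6 fibroblast genes was 1.05 to 2.29 CPM in controls and 1.05 to 1.78 with SPOCK1, that of 6 immune genes 1.36 to 1.80 and 0.97 to 1.88, and that of 5 endothelial genes 0.59 to 1.38 and 0.91 to 1.39. DCN, LUM, CDH5 and KDR had 0 counts in all libraries. Ribosomal RNA genes held a share of 0.715% ± 0.017 in controls and 0.612% ± 0.045 with SPOCK1 (SD, n = 4 each), and the part of this in the differences described here was not tested. In bulk RNA, fewer cells with a transcript and less of it per cell cannot be told apart.

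The markers split into 2 that were silent and 8 that passed a filter on low counts and are called expressed here. LGR5 and PROM1 did not pass this filter, which asks for about 10 counts in at least 4 libraries. ALCAM passed it at a mean of only 0.84 CPM in controls and 0.94 CPM with SPOCK1. That is near the level of the tuft cell gene AVIL (0.79 and 0.81 CPM), counted below among genes at or near the floor. EPCAM and CD44 were abundant, and the other 6 lay at middle or low level. None of the 8 tested markers passed an adjusted p of 0.05 between SPOCK1 and control libraries (edgeR quasi-likelihood test, Benjamini-Hochberg over 15790 genes), in a comparison that called 1.04% of all tested genes. At an unadjusted p under 0.05 there were 2 of 8, DCLK1 and SOX2, against 13.7% of all tested genes. DESeq2 called 1 of the 8, DCLK1, among 2.73% of all genes for which it gave an adjusted p, and limma-voom called none, among 0.944% of all tested genes.

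DCLK1 and SOX2 had the largest fold changes among the tested markers, so the sequence before their starts is shown. Each line holds 200 bases of the gene's own strand, 5′ to 3′, ending 10 bases before the start, from RefSeq on GRCh38.p14, with every CpG in capitals. The DCLK1 stretch is chr13:36131393-36131592 (minus strand), and the SOX2 stretch is chr3:181711715-181711914 (plus strand). No exon of GENCODE release 29 lies in either.

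DCLK1: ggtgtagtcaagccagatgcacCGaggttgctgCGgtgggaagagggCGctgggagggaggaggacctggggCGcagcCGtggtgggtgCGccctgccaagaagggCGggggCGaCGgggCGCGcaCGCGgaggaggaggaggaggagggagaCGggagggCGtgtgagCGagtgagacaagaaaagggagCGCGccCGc

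SOX2: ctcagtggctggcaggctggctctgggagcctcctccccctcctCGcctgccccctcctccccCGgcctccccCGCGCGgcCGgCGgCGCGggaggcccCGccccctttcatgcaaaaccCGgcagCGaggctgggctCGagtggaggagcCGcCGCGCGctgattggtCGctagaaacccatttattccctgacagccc

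The stretches held 19 and 18 CpG, against a median of 9 over the same stretch of 35116 promoters, of which 73.8% and 71.2% had fewer. DCLK1 has 3 starts in RefSeq, and the one shown is nearest to the 5′ end of its GENCODE gene. The same stretch before the other 2 starts of DCLK1 held 2 and 4 CpG (18.1% and 33.3% of promoters had fewer). RefSeq windows of 300 bases, 250 before and 50 after a start, were at hand for 8 of the 10 markers, 16 windows in all, because PROM1 has 4, CD24 and DCLK1 3 each and BMI1 2. The windows of PROM1, a silent gene here, held 18, 32, 24 and 6 CpG, and the median of all windows was 14. Those of the expressed markers spanned this range, from 2, 27 and 5 for DCLK1 to 36 and 65 for BMI1, with 18 each for LGR4 and CD44, 20 for SOX2, 26 for ALCAM and 25, 36 and 21 for CD24. The Wnt effector TCF binds DNA with the core CTTTGAT. This run of 7 letters, searched on both strands, was found in 2 of the 16 windows and in 2.62% of all promoter windows. The 2 matches are shown with 10 bases on each side and the core in capitals, for an internal start of PROM1 at chr4:16076281-16076307 and an internal start of DCLK1 at chr13:35855744-35855770 (both minus strand).

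PROM1 internal start: tgagtcatggCTTTGATgccagcacct

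DCLK1 internal start: taattgacacCTTTGATgtagcctaag

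A match in letters is a description and not a bound site. Counts per gene do not tell which start was used, so neither match can be set against a level.

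Levels of different genes are given per length, as RPKM (CPM per kilobase) on TMM-scaled library sizes and the deposited exonic length. EPCAM stood first, at 86.9 RPKM over all 8 libraries (74.3 to 100.6), followed by CD44 at 17.9 RPKM (15.9 to 19.4). DCLK1 (3.91 RPKM) and BMI1 (3.38 RPKM) came next with ranges that overlapped, so their order is not set. SOX2 (1.47 RPKM), CD24 (1.27 RPKM) and LGR4 (0.635 RPKM) formed a lower group, in which the ranges of SOX2 and CD24 overlapped and so did those of CD24 and LGR4. ALCAM was lowest of the expressed markers at 0.124 RPKM (0.079 to 0.180). Against all tested genes in controls, EPCAM lay above 96.8%, CD44 above 84.0%, DCLK1 above 52.3% and ALCAM above 4.83% of them by RPKM. With the length of the longest transcript in place of the exonic length, SOX2 and CD24 changed places and the other 8 markers kept theirs. The levels of BMI1 and CD24, and so their places, are uncertain because of sequence shared with other genes, as described below.

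**Figure D1:**
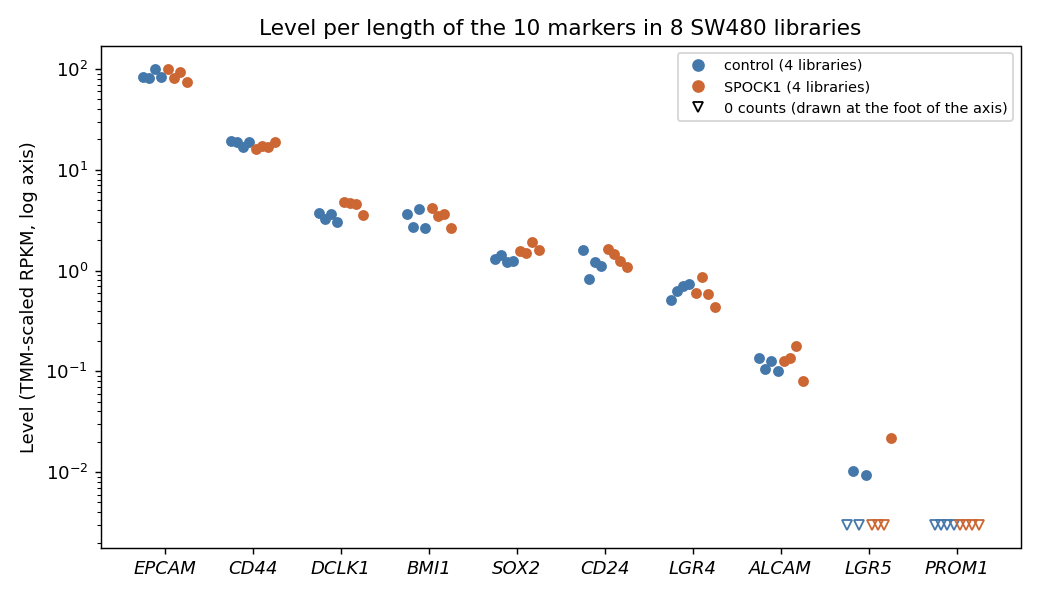
RPKM (log axis) of the 10 markers in each of 8 libraries, controls in blue and SPOCK1 libraries in orange, with libraries of 0 counts drawn as open triangles at the foot of the axis. EPCAM lies near 86.9 RPKM and ALCAM near 0.124 RPKM, while LGR5 had counts in 3 libraries and PROM1 in none.

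LGR5, the R-spondin receptor that marks crypt base stem cells, was all but silent. Its counts were 0, 2, 0 and 2 in controls 1 to 4, and 0, 0, 0 and 4 in the libraries with SPOCK1. Pooled, 4 counts in controls gave 0.026 CPM and 4 counts with SPOCK1 gave 0.027 CPM, with exact 95% Poisson intervals of 0.0071 to 0.067 and 0.0072 to 0.068 CPM. Such intervals and limits hold for counting error alone, as reads carry no molecular identifiers and are not independent molecules. TSPAN8, on the opposite strand, overlaps the LGR5 gene (chromosome 12, 71439770 to 71586310; coordinates here and below are GRCh38) without shared exonic bases. The intervals overlapped almost wholly. In a fit with no filter beyond 1 count, which takes in LGR5, its difference was 0.10 ± 1.74 on the log2 scale (SE, adjusted p = 0.999), so a difference was not detectable at this depth.

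PROM1, which encodes the membrane protein CD133 (chromosome 4, 15963076 to 16084378), had 0 counts in all 8 libraries. A pooled count of 0 allows up to 3 counts, or 0.0195 CPM in controls and 0.0199 CPM with SPOCK1. PROM1 was therefore not detectable in either group, and the data set no fold change for it.

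LGR4, the other R-spondin receptor in the set (chromosome 11, 27365961 to 27472775), was expressed at low level. It stood at 3.26, 4.00, 4.50 and 4.68 CPM in control libraries 1 to 4 and at 3.82, 5.44, 3.72 and 2.76 CPM in SPOCK1 libraries 1 to 4. The SPOCK1 libraries spanned the controls on both sides, with the highest and the lowest value of all 8 among them. On the log2 scale the difference was -0.06 ± 0.20 (SE, adjusted p = 0.925), with a 95% interval of -0.48 to 0.35, and its sign turned without control library 4 or SPOCK1 library 4 (0.0066 and 0.074). LGR6, the third receptor of this family, was higher per length than LGR4, at 4.43 against 0.635 RPKM. The levels of LGR6 were 20.8 ± 0.90 CPM in controls and 19.8 ± 2.02 CPM with SPOCK1 (SD, n = 4 each, adjusted p = 0.808).

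Of the surface markers, EPCAM, a homophilic adhesion molecule of epithelia (chromosome 2, 47345158 to 47387601), had the smallest difference. It stood at 210.1, 204.1, 251.9 and 207.6 CPM in controls and at 253.3, 205.3, 232.5 and 187.2 CPM with SPOCK1. The groups overlapped over nearly the whole range. Between the groups it differed by 0.01 ± 0.10 on the log2 scale (SE, adjusted p = 0.981), with a 95% interval of -0.20 to 0.21, and its sign turned under 8 of 20 alternatives.

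CD44, the receptor for hyaluronan and a target of Wnt signalling (chromosome 11, 35138870 to 35232402), was slightly lower by mean with SPOCK1. Its values were 193.9, 190.1, 166.6 and 189.6 CPM in controls and 159.3, 172.4, 168.6 and 189.7 CPM with SPOCK1. Control library 3 and SPOCK1 library 4 lay on the side of the other group, so the groups overlapped. The log2 fold change was -0.10 ± 0.08 (SE, adjusted p = 0.609), with a 95% interval of -0.27 to 0.07. The gene has 39 annotated transcripts, and counts per gene do not part the standard form from the variant forms that colorectal stem cell work often follows.

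CD24, a small mucin-like protein with a lipid anchor (chromosome 6, 106969831 to 106975627), had the largest coefficient of variation of the 8 tested markers among the controls, 26.9%. It stood at 4.96, 2.56, 3.77 and 3.44 CPM in controls and at 5.05, 4.53, 3.81 and 3.33 CPM with SPOCK1. For CD24 the difference in log2 was 0.18 ± 0.20 (SE, adjusted p = 0.737), with a 95% interval of -0.24 to 0.61. The table lists 3 CD24 pseudogenes with 8 counts in all, beside 1196 for CD24. How reads that match several copies were counted is not given in the sources used here, so the level of CD24 is uncertain. CD44 exceeded CD24 per length in every library, by 12.1, 23.0, 13.7 and 17.1 times in controls and by 9.76, 11.8, 13.7 and 17.6 times with SPOCK1, again with overlap. These ratios carry the uncertainty in the level of CD24.

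ALCAM, an adhesion molecule of the immunoglobulin family (chromosome 3, 105366909 to 105576900), was close to the limit of testing, at 20 to 56 counts per library. It stood at 0.97, 0.76, 0.92 and 0.73 CPM in controls and at 0.91, 0.97, 1.29 and 0.57 CPM with SPOCK1. The highest and the lowest of the 8 values were both from SPOCK1 libraries. The log2 fold change of 0.16 ± 0.32 (SE, adjusted p = 0.872) had the widest 95% interval of the set, -0.51 to 0.83, and was -0.04 without SPOCK1 library 3.

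DCLK1, a microtubule-associated kinase that marks tuft cells and has been described as a tumour stem cell marker in the mouse intestine (chromosome 13, 35768652 to 36131306), had the largest difference. It stood at 53.6, 46.5, 52.2 and 43.8 CPM in controls and at 68.5, 67.1, 66.5 and 51.3 CPM with SPOCK1. In 3 of 4 SPOCK1 libraries the value was above every control, and SPOCK1 library 4 lay inside the control range. The fold change was 1.29, with a 95% interval of 1.11 to 1.50 (log2 fold change 0.37 ± 0.10, SE, adjusted p = 0.111), and the gene was not called.

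Whether DCLK1 was called depended on the setting. Its log2 fold change was positive under all 20 alternatives, from 0.32 to 0.46, and it passed the threshold under 5 of them, with adjusted p between 0.00507 and 0.418 over the 20. Without SPOCK1 library 4 it was 0.46 ± 0.09 (adjusted p = 0.0183), in a fit that called 1.47% of its genes. With offsets for GC content and length in each library it was 0.44 ± 0.08 (adjusted p = 0.00507), in a fit that called 2.31% of all tested genes as higher with SPOCK1 and 1.61% as lower, 364 and 254 genes against 39 and 126 without offsets. DCLK1 was the 1 marker called with these offsets. DESeq2 (adjusted p = 0.0289), a fit with no filter beyond 1 count (adjusted p = 0.0169, 1.39% of its genes called) and the offsets together with a replicate block (adjusted p = 0.0227, 1.32% called) also called it. Other tuft cell genes were at or near the floor: the summed level of POU2F3, TRPM5, AVIL, GFI1B, PTGS1 and HPGDS was 0.94 to 1.78 CPM in controls and 1.14 to 1.39 CPM with SPOCK1, with HPGDS at 0 counts, and AVIL, the 1 of 6 that could be tested, differed by 0.04 ± 0.37 on the log2 scale (SE, adjusted p = 0.976). AVIL shares 5.15% of its exonic bases with TSFM on the opposite strand, which had 14391 counts beside 244 for AVIL, so its level is uncertain.

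SOX2, a pluripotency transcription factor of the HMG box family (chromosome 3, 181711924 to 181714436), was the 1 marker whose groups did not overlap, in a comparison in which 8.23% of all tested genes did not. It stood at 3.24, 3.62, 3.07 and 3.12 CPM in controls and at 3.93, 3.73, 4.85 and 4.04 CPM with SPOCK1. All 4 SPOCK1 libraries were above all 4 controls, with SPOCK1 library 2 and control library 2 next to each other and SPOCK1 library 3 highest. The fold change was 1.27, with a 95% interval of 1.01 to 1.60 (log2 fold change 0.35 ± 0.16, SE), and the adjusted p was 0.346. Between 0.230 and 0.835 over the 20 alternatives, the adjusted p of SOX2 passed the threshold under none. Its single exon lies inside the gene of the long noncoding RNA SOX2-OT on the same strand, without shared exonic bases, and SOX2-OT had 13 counts over all libraries beside 1130 for SOX2.

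BMI1, a ring finger subunit of the polycomb repressive complex 1 (chromosome 10, 22321211 to 22331484), was nearly equal in the means of the groups. It stood at 15.6, 11.5, 17.5 and 11.4 CPM in controls and at 18.0, 14.9, 15.7 and 11.4 CPM with SPOCK1. The groups overlapped over nearly the whole range. The log2 fold change was 0.10 ± 0.16 (SE, adjusted p = 0.824), with a 95% interval of -0.23 to 0.43. The read-through gene COMMD3-BMI1 shares 23.3% of the exonic bases of BMI1 and is listed at 0 counts in every library. How reads in the shared bases were assigned is not given in the sources used here, so the level of BMI1 per length is uncertain.

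**Figure D2:**
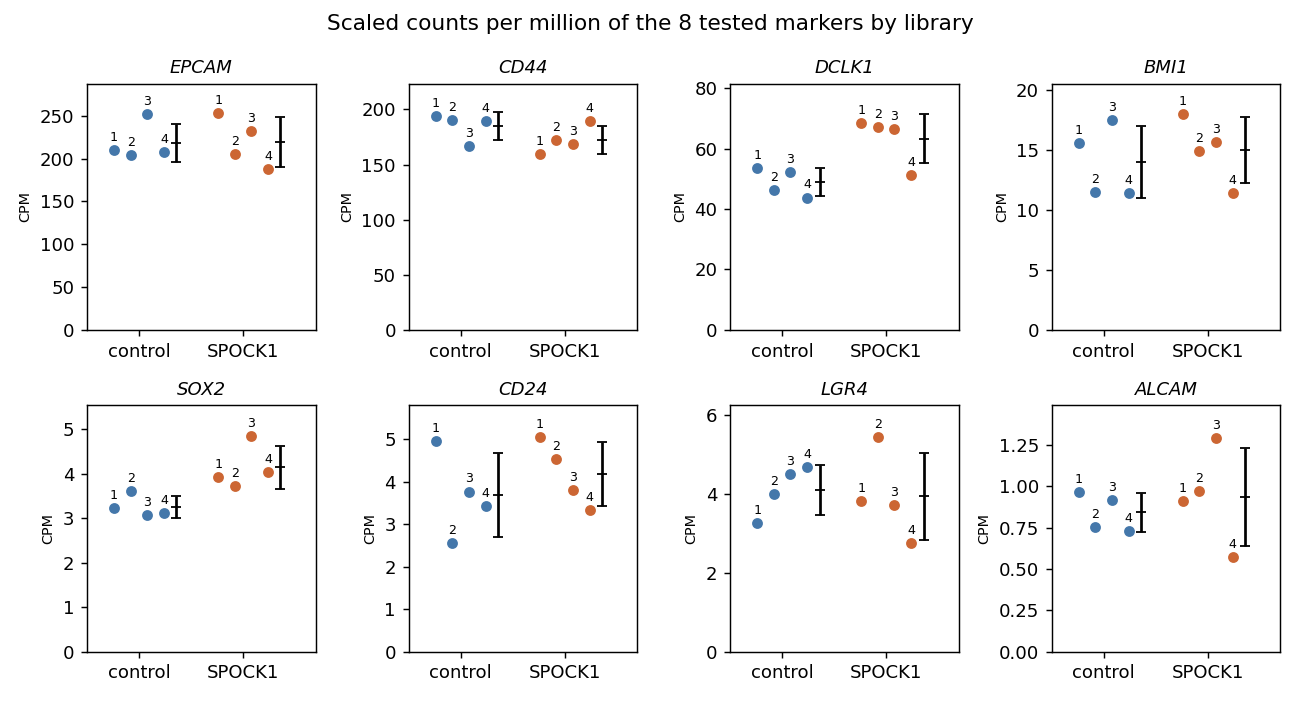
Scaled CPM (linear axes from 0) of the 8 tested markers, 1 point per library with its number, and the mean ± SD of each group of 4 at the right. The groups overlap in 7 of 8 panels, and SOX2 is the panel in which all SPOCK1 libraries (3.73 to 4.85 CPM) lie above all controls (3.07 to 3.62 CPM).

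Over the 8 tested markers 6 log2 fold changes were positive, with a median of 0.13. Over all tested genes 7763 of 15790 were positive, with a median of -0.0042. The plot of differences shows intervals that include 0 for 6 of the 8. For the abundant markers the intervals were narrow, with upper 95% bounds of 1.16-fold for EPCAM and 1.05-fold for CD44. For LGR4, CD24 and BMI1 the upper bounds were 1.28-fold, 1.52-fold and 1.35-fold, and for ALCAM 1.78-fold.

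**Figure D3:**
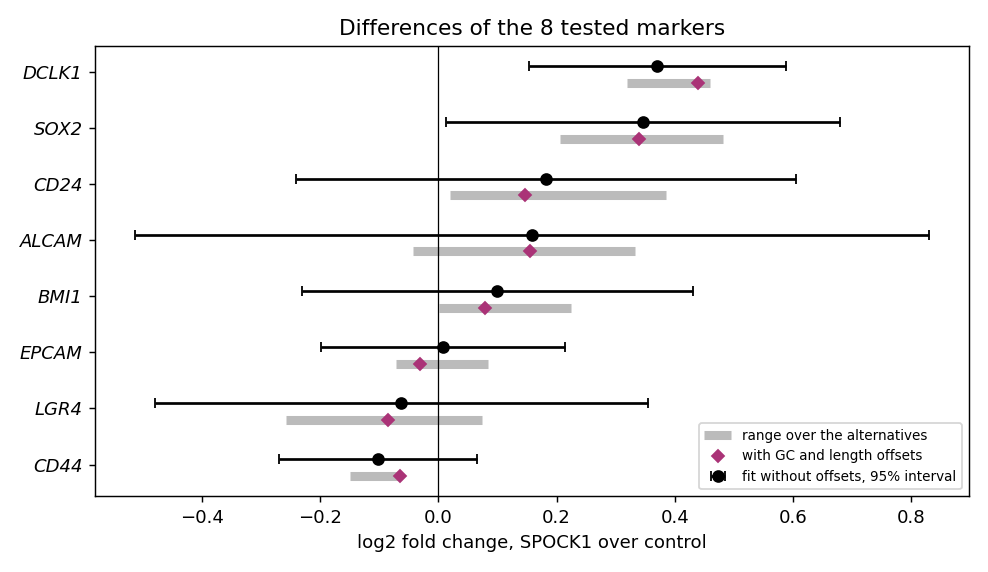
Log2 fold change of SPOCK1 over control libraries for the 8 tested markers, with 95% intervals (black), the values with GC and length offsets (diamonds) and the range over 20 alternatives (19 for ALCAM, grey bars). DCLK1 and SOX2 have intervals above 0 before adjustment, and the grey bars of LGR4, ALCAM and EPCAM cross 0.

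Part of the spread parted libraries 1 and 3 from libraries 2 and 4 in both groups. Libraries differ in a trend with GC content, measured as the mean log2 deviation of the fifth of genes richest in GC minus that of the fifth poorest. This trend was -0.25 to -0.12 in libraries 1 and 3 of both groups and 0.025 to 0.25 in libraries 2 and 4. BMI1, whose longest transcript has 39.1% GC, stood at 15.6 to 18.0 CPM in libraries 1 and 3 and at 11.4 to 14.9 CPM in libraries 2 and 4. EPCAM, at 47.0% GC, likewise stood at 210.1 to 253.3 CPM in the first and at 187.2 to 207.6 CPM in the second. No other tested marker was parted without overlap, ALCAM (39.6% GC) and LGR4 (42.1% GC) among them. By mean, though, others were shifted too. The mean of libraries 1 and 3 over that of libraries 2 and 4 was 1.35 for BMI1 and 1.18 for EPCAM. For ALCAM, CD24 and DCLK1 it was 1.35, 1.27 and 1.15, and for SOX2, CD44 and LGR4 it was 1.04, 0.93 and 0.91. Within libraries 1 and 3 alone the log2 fold changes of DCLK1 and SOX2 were 0.35 ± 0.12 and 0.48 ± 0.23 (adjusted p = 0.418 and 0.461). Within libraries 2 and 4 alone they were 0.39 ± 0.11 and 0.21 ± 0.23 (adjusted p = 0.0819 and 0.835).

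**Figure D4:**
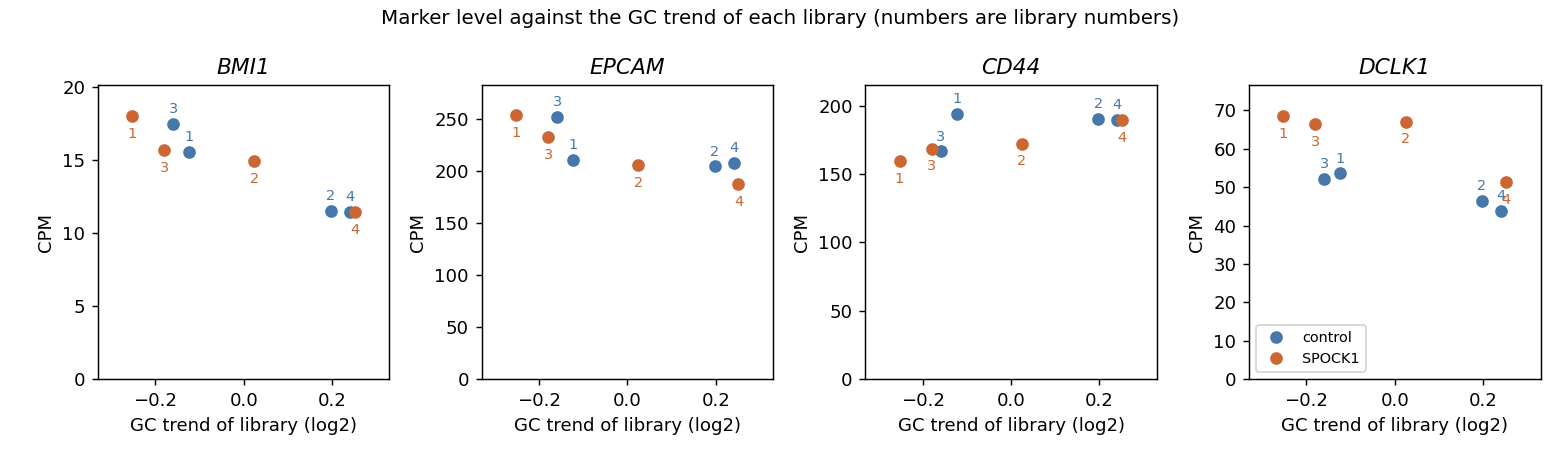
CPM of BMI1, EPCAM, CD44 and DCLK1 against the GC trend of each library (log2, numbers are library numbers, controls blue, SPOCK1 orange). BMI1 lies at 15.6 to 18.0 CPM in the 4 libraries with a trend below 0 and at 11.4 to 14.9 CPM in the 4 above 0, in both groups.

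The genes whose log2 CPM followed a marker most closely over the 8 libraries were sought among 11807 protein-coding genes with a mean of at least 1 CPM, for the 3 markers with the largest differences. For DCLK1 they were GARS and HSPA9 (Pearson r = 0.989 and 0.979), for SOX2 MAOA and TBC1D30 (r = 0.955 and 0.954), and for CD24 REEP3 and ARHGAP40 (r = 0.972 and 0.956). The points share the 8 libraries with their GC trend and their groups, and the highest of 11807 values is high by selection. Of these 6 genes MAOA, a monoamine oxidase, rose with SPOCK1 (log2 fold change 0.68 ± 0.14, SE, adjusted p = 0.0203), and the other 5 did not pass. The same fit called 0.247% of all tested genes as higher and 0.798% as lower. MAOA was picked for following SOX2, whose groups did not overlap, so the choice itself favours a difference between the groups.

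Genes that work beside the markers were read from the same fit, which called 126 of all tested genes as lower with SPOCK1 and 39 as higher. Of the R-spondin and LGR axis, 3 of 7 genes could be tested and 0 were called, with a median log2 fold change of -0.21. The 4 R-spondins had 0 to 2 counts in either group, so the ligands of LGR4 and LGR6 were at the floor. RNF43 and ZNRF3, the ubiquitin ligases that remove Frizzled receptors and are held back by R-spondin, differed by -0.30 ± 0.10 and -0.21 ± 0.10 on the log2 scale (SE, adjusted p = 0.197 and 0.357). Most exonic bases of RNF43 (57.6%) are shared with AC004687.2, a protein-coding gene on the same strand listed with 23 counts, so its level is uncertain.

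Of 18 crypt base stem cell genes 15 were tested, of which 1 fell and 0 rose. The median log2 fold change was -0.12, with 4 of 15 positive against 7763 of 15790 over all tested genes. The fall was PTK7, a Wnt co-receptor of the receptor tyrosine kinase family that has been used to sort colon stem cells. PTK7 stood at 161.0, 167.1, 157.5 and 159.4 CPM in controls and at 98.9, 114.1, 111.1 and 135.6 CPM with SPOCK1. It fell by 28.7%, without overlap between the groups (log2 fold change -0.49 ± 0.09, SE, adjusted p = 0.0102), in a comparison that called 0.798% of all tested genes as lower. The call held without each library in turn (adjusted p of 0.0012 to 0.0474) and was lost in libraries 1 and 3 alone (-0.60 ± 0.11, adjusted p = 0.150). Like LGR5 and PROM1, the crypt markers OLFM4, SMOC2 and HOPX were silent, with 0 counts in all libraries. ASCL2, a transcription factor of intestinal stem cells that is a Wnt target, was abundant at 178.8 CPM in controls and 164.8 CPM with SPOCK1 (adjusted p = 0.563).

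Of 20 other genes linked with tumour-initiating cells 12 were tested, 1 fell and 0 rose, with a median of 0.05. Over all tested genes 0.798% were called lower and 0.247% higher. ABCB1, a drug efflux pump, had 31.0, 23.9, 27.5 and 24.0 CPM in controls and 11.6, 14.9, 13.8 and 14.7 CPM with SPOCK1, and fell by 48.3% (log2 fold change -0.95 ± 0.12, SE, adjusted p = 3.13e-04). ALDH1A1, whose enzyme activity is used to sort such cells, had 0 counts, and NANOG had 3 counts in controls and 7 with SPOCK1. Other genes of this list were well expressed and not called. ALDH1A3 stood at 54.8 CPM in controls and 49.0 CPM with SPOCK1, ALDH1B1 at 73.5 and 75.0 CPM, and MYC at 343.6 and 362.2 CPM. Of 18 other genes of polycomb repressive complex 1, which include PCGF paralogues that take the place of BMI1, all 18 were tested and 0 were called, with a median of -0.09. The lowest was CBX7, a chromodomain subunit, at -0.44 ± 0.11 (SE, adjusted p = 0.0611), chosen for mention after its value was seen.

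Of 15 partners of the surface markers 12 were tested, 2 fell and 0 rose, with a median of -0.03. The same fit called 0.798% of all tested genes as lower and 0.247% as higher. With GC and length offsets, described below, this list counted 1 rise and 3 falls. CLDN7, a claudin that binds EpCAM, stood at 129.9, 153.8, 137.9 and 156.6 CPM in controls and at 100.2, 104.2, 91.8 and 110.2 CPM with SPOCK1. CLDN7 fell by 29.7% (log2 fold change -0.51 ± 0.09, SE, adjusted p = 0.00528), while that of EPCAM itself was 0.01. In libraries 1 and 3 alone that call of CLDN7 was lost (-0.48 ± 0.11, adjusted p = 0.284). CLDN7 shares 10.8% of its exonic bases with AC003688.1, a protein-coding gene on the same strand listed at 0 counts, and 1.52% with ELP5 on the opposite strand. ESRP1, a splicing factor that governs the variant exons of CD44, stood at 56.5, 50.9, 57.2 and 49.1 CPM in controls and at 36.8, 43.4, 44.0 and 37.2 CPM with SPOCK1. It fell by 24.4% (log2 fold change -0.40 ± 0.09, SE, adjusted p = 0.0465), a call that held under 9 of 20 alternatives. The call of ESRP1 was lost without any 1 of the 8 libraries (adjusted p of 0.0586 to 0.129), in the fit blocked on library number (adjusted p = 0.0674) and in each pair of library numbers alone, with log2 fold changes of -0.49 to -0.31 in these 11 fits. It was called with DESeq2 (adjusted p = 0.00519) and with GC and length offsets (-0.43 ± 0.07, adjusted p = 0.00409). Its paralogue ESRP2 differed by -0.02 ± 0.09 (SE, adjusted p = 0.938). Of 11 close relatives of the markers 6 were tested and 0 were called, with a median of -0.16, and PROM2, the relative of PROM1, had 2 counts over all libraries. LGR6 and PCGF2 stand in 2 of these lists each.

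With GC and length offsets 4 more companion genes were called, against 2.31% of all tested genes higher and 1.61% lower in that fit. EZR, which links CD44 to the actin cytoskeleton, rose (log2 fold change 0.29 ± 0.06, SE, adjusted p = 0.0167), so that the surface partners counted 1 rise and 3 falls. HAS3, a hyaluronan synthase, fell (-0.39 ± 0.08, SE, adjusted p = 0.0125), and 6.90% of its exonic bases are shared with CHTF8 on the opposite strand, which had more counts. NOTUM, a secreted Wnt inhibitor of the crypt base list, fell (-0.27 ± 0.06, SE, adjusted p = 0.0262), and so did CBX7 (-0.33 ± 0.08, SE, adjusted p = 0.0291). Without the offsets these 4 had adjusted p of 0.0546 to 0.0874. Their log2 fold changes were then 0.28 ± 0.08 for EZR, -0.43 ± 0.10 for HAS3, -0.39 ± 0.09 for NOTUM and -0.44 ± 0.11 for CBX7 (SE). The falls of HAS3, NOTUM and CBX7 were thus smaller with the offsets, and so were their standard errors. PTK7, ABCB1, CLDN7 and ESRP1 were called in both fits, at -0.37, -0.96, -0.44 and -0.43 with the offsets against -0.49, -0.95, -0.51 and -0.40 without.

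**Figure D5:**
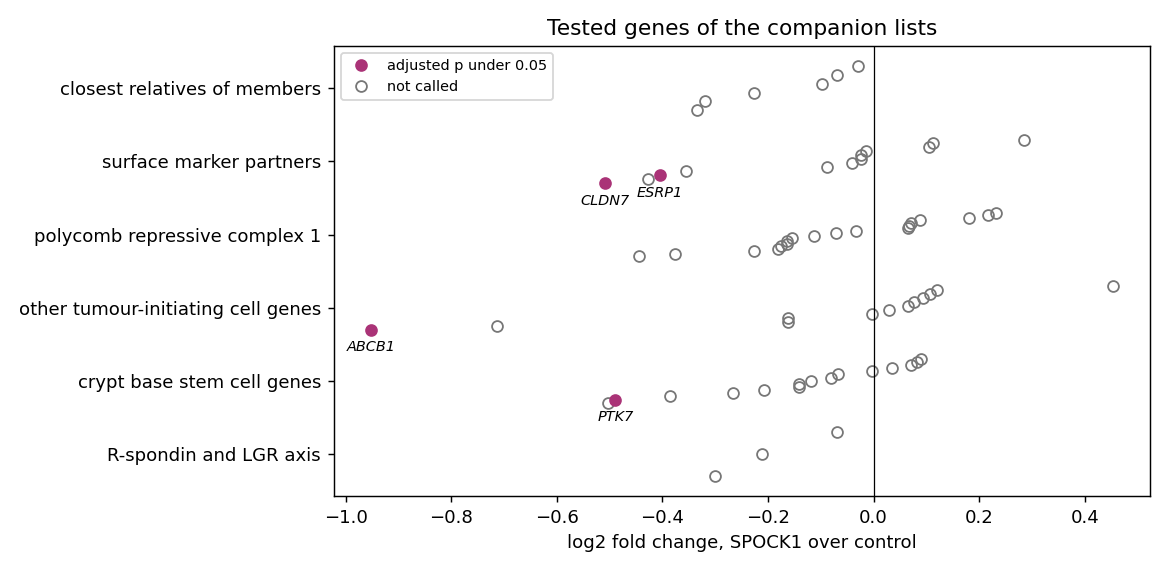
Log2 fold change of SPOCK1 over control libraries for the tested genes of 6 companion lists in the fit without offsets, 1 point per gene, filled where the adjusted p was under 0.05. The 4 filled points, PTK7, ABCB1, CLDN7 and ESRP1, lie between -0.95 and -0.40, and no filled point lies above 0. Over all tested genes 126 were called lower and 39 higher.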

How the data were processed

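The deposited values are whole-number read counts per gene in 8 libraries, without normalization, beside gene coordinates and a length in bases. Per the submitters' processing notes, the tools were featureCounts 1.5.0-p3, HISAT2 2.0.5 and CASAVA. For build, strand setting and reads matching several genes, the sources used here give nothing. Start, end, strand and length of all 58735 genes equal those of GENCODE release 29 (GRCh38), so exonic length is the deposited length.

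The quasi-likelihood test of edgeR 4.0.16 (R 4.3.3; glmQLFit, glmQLFTest) set SPOCK1 against control with no covariate, on TMM-scaled sizes. The filter filterByExpr (minimum count 10, minimum total 15) left 15790 genes, and the Benjamini-Hochberg adjustment ran over all of them. Standard errors were taken from the F statistic. Symbols were matched as deposited. Offsets were natural splines of 5 degrees of freedom on GC content of the longest transcript and on length, fitted per library, with GC known for 99.95% of tested genes. DESeq2 1.42.0 and limma 3.58.1 (voom) were alternatives. The edgeR fits with and without offsets, without a block, were also run on simulated counts. These counts held no GC or length trend by library, so whether the offsets remove such a trend was not tested.

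The markers, lists, tests and alternatives were chosen with earlier results of these data known. Named are all 10 markers, every companion gene past an adjusted p of 0.05, and the 2 genes most like each of the 3 markers with the largest differences. Other companion genes were named after their values were seen.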

Additional observations from a re-analysis of the deposited data

Results flagged for a closer look

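A sample stood apart from the other 3 of its group, by a gap over 0.829 of the group's range, in 4 of 18 groups of 4 checked. Chance flags about 1 in 20 groups, and markers of the same libraries are not independent. This rate does not hold for LGR5 with SPOCK1, where a single library with any count is always flagged. Control library 3 was apart for 2 markers: it was the lowest control for CD44, at 166.6 CPM, and the highest control for EPCAM, at 251.9 CPM. SPOCK1 library 4 was apart for 2 others: it was the lowest of its group for DCLK1, at 51.3 CPM, and held all 4 counts of LGR5 in its group, at 0.114 CPM.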

How the results depend on the processing

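The 165 called genes became 398 with DESeq2, 399 with no filter beyond 1 count, 618 with GC and length offsets, 8 in libraries 1 and 3 alone, and 89 to 237 without 1 library (96 without control library 2, 90 and 89 without SPOCK1 library 2 or 3). The 0 called markers became 1, DCLK1, with DESeq2, with no filter beyond 1 count, with the offsets, with the offsets and a replicate block together, and without SPOCK1 library 4 (0 to 1 without 1 library). The log2 fold change of DCLK1 was then 0.38, 0.37, 0.44, 0.43 and 0.46. With no filter beyond 1 count 1 marker, PROM1, stayed untested, and LGR5 had a log2 fold change of 0.10 ± 1.74. With a filter at a mean of 1 CPM ALCAM was also untested. Signs turned without 1 library for LGR4 (range -0.258 to 0.0737, above 0 without control or SPOCK1 library 4), ALCAM (range -0.0438 to 0.333, below 0 without SPOCK1 library 3) and EPCAM (range -0.0689 to 0.0832, below 0 in 5 of 8 such fits). They also turned for EPCAM with offsets (-0.0311), with offsets and block (-0.0328) and in libraries 2 and 4 alone (-0.0713). The cause was not tested. With the replicate number as a block 115 genes and 0 markers were called. Shared numbers were not taken as pairs, since same-numbered deviations correlated at -0.17, 0.11, 0.13 and 0.20 and not every library correlated best with its own number (control 3 with SPOCK1 1 at 0.38, control 1 with SPOCK1 3 at 0.32, control 2 with SPOCK1 4 at 0.30). Depth limits LGR5, PROM1 and ALCAM.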
